A study of Bos taurus with 2 samples.

Results

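The genes examined were 10 genes of mesenchyme and extracellular matrix, out of 21209 gene symbols with a value in bovine embryos produced in vitro. They were MFAP5, LUM, CCDC80, PLOD2, COL1A2, NID2, SPARC, VIM, GJA1 and CDH2. The genes were chosen by name after their values were known. Of these, 8 were taken because their values were far higher in the injected embryos, and COL1A2 and SPARC were added as contrast. Their differences between the pools are therefore given as a description, with no test.

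The CDKN1C-siRNA-injected embryos were zygotes of in vitro fertilization that received siRNA against CDKN1C, an imprinted inhibitor of cyclin-dependent kinases, by microinjection. The Sham-injected embryos were punctured by the same needle without delivery of siRNA. Embryos of each group were pooled, the RNA of the pool was amplified, and 1 library was sequenced per pool. For the sequenced pools, cow breed, embryo sex, pool size and the day of collection are not given separately in the sources used here. Treatment and pool cannot be told apart, and no error between embryos can be given for any value below. The paper's control siRNA, against GFP, is not among these pools, so that lowering of CDKN1C and delivery of siRNA as such cannot be told apart.

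Mesenchyme is a loose tissue whose cells lie within a matrix that they secrete. Matrix proteins are made in the secretory pathway, where collagen chains are hydroxylated and folded before export, and they are assembled outside the cell into fibres, microfibrils and sheets. The basement membrane is such a sheet, and in the blastocyst it lies under epithelial layers such as trophectoderm and hypoblast. Vimentin filaments, N-cadherin junctions and connexin channels are features of many mesenchymal cells, whereas trophectoderm, the outer epithelium of the blastocyst, is rich in keratins and E-cadherin.

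Values were FPKM, fragment numbers divided by transcript length and by a library scale, which the authors had normalized to the upper quartile and corrected for sequence bias. The difference of a gene was the log2 ratio of injected to sham FPKM after 1 FPKM was added to each, over the 7984 genes averaging 1 FPKM or more. This scale understates the difference of genes with low values, so the plain ratio of FPKM is given beside it and called a fold. Across these genes the median log2 difference was -0.17. It shifted upwards by 0.32 when both pools were scaled to the same total FPKM, and the share of higher genes among 4-fold differences was 28.2% as deposited, 46.9% with the median difference set to 0 and 64.8% with equal totals. CDKN1C itself was 14.6 FPKM in siRNA-injected embryos and 49.5 FPKM in sham embryos.

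All 10 genes were above 0 FPKM in both pools, as were 61.6% of all symbols, and all 10 were higher in the injected pool by some amount, as were 41.7% of all genes averaging 1 FPKM or more. Without SPARC their summed level was 66.4 FPKM in siRNA-injected embryos and 6.71 FPKM in sham embryos, a 9.90-fold difference. SPARC alone made up 42.9% of the sum of the 10 genes in the injected pool and 88.1% in the sham pool. In these bulk RNA values, fewer cells of a type and less RNA per cell cannot be told apart.

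A mean of at least 1 FPKM was reached by 8 of the 10 genes, all but GJA1 and CDH2. Of these 8, MFAP5, LUM, CCDC80 and PLOD2 passed only through the injected pool, whereas VIM, NID2, COL1A2 and SPARC also exceeded 1 FPKM in sham embryos. On the log2 scale 4 of the 8 genes were at least 4-fold higher, against 0.413% of all genes compared, and 6 were at least 2-fold higher, against 4.92%. None was 2-fold lower, against 15.7% of all genes, or 4-fold lower, against 1.05%. MFAP5 alone was at least 10-fold higher on this scale, against 0.125% of all genes, and none was 10-fold lower, against 0.0125%. The choice of the genes used these same values, so that nothing is read from these counts.

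**Figure D1:**
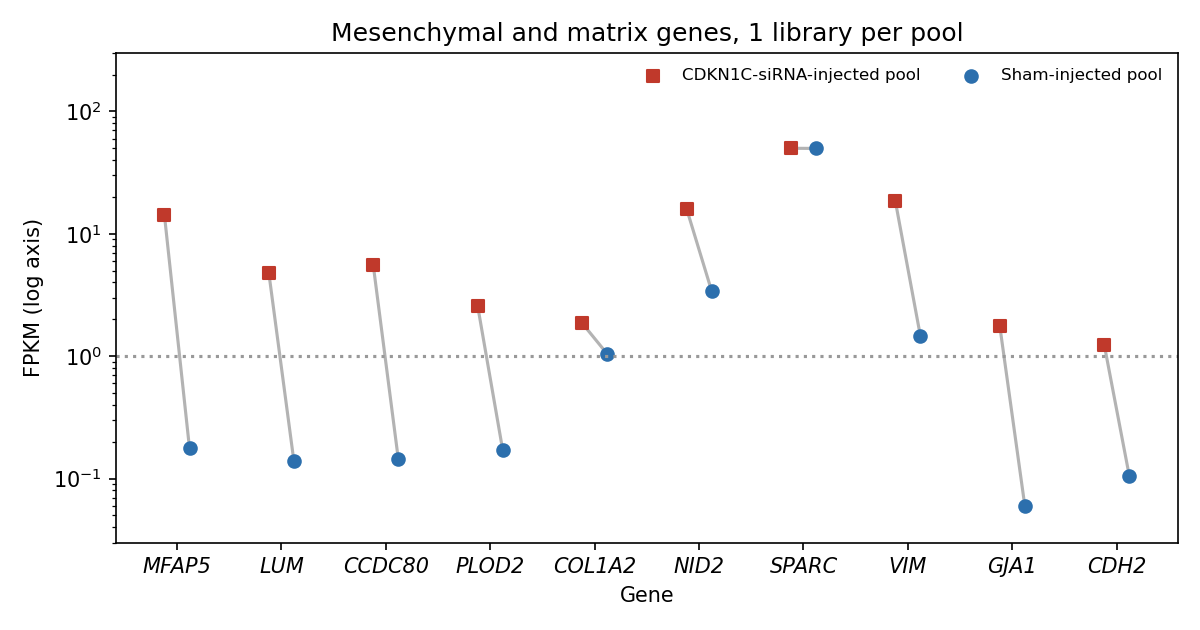
FPKM of the 10 genes (vertical, log axis) in the CDKN1C-siRNA-injected pool (red squares) and the Sham-injected pool (blue circles), 1 library each, with a grey line joining the 2 values of a gene and a dotted line at 1 FPKM. For 6 genes the sham value lies under 0.2 FPKM and the injected value above 1 FPKM, while both SPARC points lie near 50 FPKM.

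In 6 of the 10 genes, MFAP5, LUM, CCDC80, PLOD2, GJA1 and CDH2, the sham value was under 0.2 FPKM and the injected value at least 1 FPKM. Both limits were set after the values had been seen. This pattern was found in 53 of all 21209 symbols, or 0.25%, and the opposite pattern in 98 symbols, or 0.462%.

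Among the secreted matrix proteins, MFAP5 differed most. It encodes a small glycoprotein of the microfibrils that accompany elastic fibres. MFAP5 was 14.2 FPKM in siRNA-injected embryos and 0.177 FPKM in sham embryos, an 80.3-fold difference and a log2 difference of 3.69. Only 8 of the 7984 genes, MFAP5 included, had a difference as high. Its level exceeded that of 88.3% of all symbols in the injected pool and 47.4% in the sham pool.

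The position given for MFAP5, chromosome 5 of bosTau7 from 107932855 to 108080425, is a locus of 147.6 kb that the files also give for an entry named LOC100850521,RIMKLB. That entry was 65.1 FPKM in siRNA-injected embryos and 29.0 FPKM in sham embryos, 2.25-fold higher after siRNA injection. Whether the authors' counting used strand is not given in the sources used here, so fragments from overlapping parts of these genes cannot be told apart. The MFAP5 value is uncertain to that extent.

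Other genes of elastic fibres and microfibrils differed less. FBLN2, a fibulin and the gene of this group with the highest level, was 53.4 FPKM in siRNA-injected embryos and 94.2 FPKM in sham embryos. LTBP1 and LTBP3 encode proteins that tether latent TGF-beta to microfibrils. LTBP1 was 4.91 FPKM in siRNA-injected embryos and 2.24 FPKM in sham embryos, and LTBP3 was 5.93 FPKM in siRNA-injected embryos and 7.66 FPKM in sham embryos. These 3 were the only other measured genes of 16 averaging 1 FPKM or more, and none of them differed by 2-fold on the log2 scale as deposited. With the median difference set to 0 or with equal totals, LTBP1 was at least 2-fold higher. MFAP5 was 2.39 times the LTBP3 level in the injected pool and 0.0231 times in the sham pool. MFAP2, the close relative of MFAP5, was listed at 0 in both pools, as were ELN, which encodes elastin, MFAP4, EMILIN1 and EFEMP1.

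LUM encodes lumican, a small leucine-rich proteoglycan that binds collagen fibrils and spaces them. It was 4.77 FPKM in siRNA-injected embryos and 0.138 FPKM in sham embryos, a 34.5-fold difference and a log2 difference of 2.34. LUM lies alone in its locus on chromosome 5 from 23650318 to 23657534, between its relatives KERA and DCN, and KERA and EPYC of the same cluster were listed at 0 in both pools. DCN, which encodes decorin, was 0.653 FPKM in siRNA-injected embryos and 0.0559 FPKM in sham embryos, so that it was low in both and 11.7-fold higher after siRNA injection. OGN and FMOD, further members of the family, were 0.174 and 0.239 FPKM in siRNA-injected embryos, against 0.0167 and 0.0567 FPKM in sham embryos. None of the 11 measured relatives of LUM reached a mean of 1 FPKM, and their summed level was 1.13 FPKM in siRNA-injected embryos and 0.218 FPKM in sham embryos. LUM exceeded DCN 7.30-fold in the injected pool and 2.47-fold in the sham pool.

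CCDC80 encodes a secreted protein that binds matrix. It lies on chromosome 1 from 58080017 to 58115541, and was 5.52 FPKM in siRNA-injected embryos and 0.144 FPKM in sham embryos, a 38.5-fold difference and a log2 difference of 2.51. Other matricellular genes have secreted products that act on cells rather than build fibres. Of 15 such genes measured, only 4 averaged 1 FPKM or more, and these were within 2-fold between the pools on the log2 scale. TGFBI was 10.6 FPKM in siRNA-injected embryos and 14.2 FPKM in sham embryos. CYR61 was 9.46 FPKM in siRNA-injected embryos and 6.93 FPKM in sham embryos. CTGF was 5.32 FPKM in siRNA-injected embryos, against 4.27 FPKM in sham embryos, and SPP1, which encodes osteopontin, was 2.76 FPKM in siRNA-injected embryos, against 1.39 FPKM in sham embryos. Below a mean of 1 FPKM, SRPX, a secreted protein gene related to CCDC80, was 0.450 FPKM in siRNA-injected embryos and 0.381 FPKM in sham embryos. Others this low went both ways. THBS1 was 0.450 FPKM in siRNA-injected embryos and 0.170 FPKM in sham embryos, and SPOCK1 was 0.545 FPKM in siRNA-injected embryos, against 1.36 FPKM in sham embryos.

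PLOD2 and COL1A2 belong to collagen production. PLOD2 encodes a lysyl hydroxylase that modifies the telopeptides of collagen and so sets the kind of crosslink formed. It lies on chromosome 1 from 124617975 to 124739559, and was 2.56 FPKM in siRNA-injected embryos and 0.170 FPKM in sham embryos, a 15.1-fold difference and a log2 difference of 1.61. COL1A2 encodes the second chain of type I collagen, lies on chromosome 4 from 11773895 to 11810565, and was 1.86 FPKM in siRNA-injected embryos and 1.04 FPKM in sham embryos, a 1.78-fold difference and a log2 difference of 0.49. A difference at least as high as that of COL1A2 was found in 1472 of the 7984 genes.

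COL1A1, the partner chain of COL1A2, was listed at 0 in both pools, and so were COL5A1 and COL11A2. COL3A1, the type III collagen gene, was 0.190 FPKM in siRNA-injected embryos and 0.00526 FPKM in sham embryos. The summed level of the 8 fibrillar collagen genes other than COL1A2 was 0.337 FPKM in siRNA-injected embryos and 0.190 FPKM in sham embryos, and none reached a mean of 1 FPKM. Fibrillar collagen transcripts other than COL1A2 were thus at or near 0 in both pools.

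Of 22 measured collagen-modifying enzymes and chaperones other than PLOD2, 11 had a mean of at least 1 FPKM, of which 1 was higher and 2 were lower by at least 2-fold on the log2 scale after siRNA injection. SERPINH1, the collagen-specific chaperone, was 9.10 FPKM in siRNA-injected embryos and 2.48 FPKM in sham embryos, a 3.66-fold difference. PPIB, a prolyl isomerase of the endoplasmic reticulum, was 225 FPKM in siRNA-injected embryos and 609 FPKM in sham embryos. PCOLCE, an enhancer of procollagen cleavage, was 3.30 FPKM in siRNA-injected embryos and 11.0 FPKM in sham embryos. P4HB, a subunit of prolyl hydroxylase, was 43.5 FPKM in siRNA-injected embryos and 40.01 FPKM in sham embryos, and PLOD3, another lysyl hydroxylase, was 4.37 FPKM in siRNA-injected embryos, against 8.16 FPKM in sham embryos. CRTAP, a partner of prolyl hydroxylation, was 8.79 FPKM in siRNA-injected embryos and 9.28 FPKM in sham embryos. The median log2 difference of the 11 genes was -0.56, and it stayed negative, at -0.33, with equal totals. PLOD2 was 58.6% of the PLOD3 level in the injected pool and 2.09% in the sham pool, while PLOD1 was 0.0451 FPKM in siRNA-injected embryos and 0.480 FPKM in sham embryos.

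NID2 and SPARC are genes of the basement membrane and its surroundings. NID2 encodes a nidogen, a linker between laminin and type IV collagen networks. It was 16.1 FPKM in siRNA-injected embryos and 3.42 FPKM in sham embryos, a 4.70-fold difference and a log2 difference of 1.95, just short of 4-fold on that scale. Its locus, on chromosome 10 from 44859533 to 44958463, is shared with LOC613519, which was 0.177 FPKM in siRNA-injected embryos and 0.300 FPKM in sham embryos.

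SPARC encodes a calcium-binding glycoprotein of the matrix that binds collagens. It was 49.97 FPKM in siRNA-injected embryos and 49.82 FPKM in sham embryos, a ratio of 1.003, and was the highest of the 10 genes in both pools. Its level exceeded that of 94.8% of all symbols in the injected pool and 93.9% in the sham pool. Its log2 difference was 0.0045, and 3308 of the 7984 genes were as high or higher. The SPARC locus, on chromosome 7 from 63566905 to 63605517, is also given for LOC100849231, at 4.63 FPKM in siRNA-injected embryos and 3.45 FPKM in sham embryos.

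Other basement membrane genes averaging 1 FPKM or more differed less than NID2. LAMB1 and LAMC1, the laminin chain genes, were 15.5 and 3.33 FPKM in siRNA-injected embryos, against 8.55 and 2.30 FPKM in sham embryos. NID1, the other nidogen gene, was 6.35 FPKM in siRNA-injected embryos and 5.70 FPKM in sham embryos. AGRN, which encodes agrin, was 8.94 FPKM in siRNA-injected embryos and 15.5 FPKM in sham embryos, and COL4A1, a type IV collagen gene, was 7.82 FPKM in siRNA-injected embryos, against 11.3 FPKM in sham embryos. COL18A1 and LAMA1 were lower after siRNA injection as well, at 1.15 and 1.94 FPKM in siRNA-injected embryos, against 3.08 and 2.72 FPKM in sham embryos. Of these 7 genes none differed by 2-fold on the log2 scale, with equal totals 1 did, and 3 were higher and 4 lower under each scaling tried. NID2 was 2.53 times the NID1 level in the injected pool and 0.600 times in the sham pool, so that the order of the nidogen genes was not the same in the pools. NID2 was also 1.04 times the LAMB1 level in the injected pool, against 0.400 times in the sham pool.

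VIM encodes vimentin, the intermediate filament protein of mesenchymal cells. It was 18.5 FPKM in siRNA-injected embryos and 1.46 FPKM in sham embryos, a 12.7-fold difference and a log2 difference of 2.99. VIM lies alone in its locus, on chromosome 13 from 31432087 to 31440017, and after SPARC it was the gene of the 10 with the highest level in the injected pool. The keratins of simple epithelia, KRT18 and KRT8, were far more abundant. KRT18 was 5389 FPKM in siRNA-injected embryos and 11245 FPKM in sham embryos, and KRT8 was 1610 FPKM in siRNA-injected embryos and 5760 FPKM in sham embryos. VIM was thus 0.342% of the KRT18 level in the injected pool and 0.0129% in the sham pool, a ratio that no scaling between the pools can alter.

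Among 10 filament and lamin genes other than VIM averaging 1 FPKM or more, none was 2-fold higher on the log2 scale and 3, KRT8, KRT18 and KRT7, were at least 2-fold lower as deposited. With equal totals 1 was 2-fold higher and 2 were 2-fold lower. KRT7 was 4.67 FPKM in siRNA-injected embryos and 14.7 FPKM in sham embryos. NES, which encodes nestin, a filament protein of progenitor cells, was 3.51 FPKM in siRNA-injected embryos and 1.36 FPKM in sham embryos, 2.58-fold higher by the plain ratio, and the lamin gene LMNA was 66.2 FPKM in siRNA-injected embryos, against 100.1 FPKM in sham embryos. LMNB1 and NEFL, of another lamin and a neurofilament, were 5.13 and 2.13 FPKM in siRNA-injected embryos, against 3.78 and 2.51 FPKM in sham embryos. PRPH encodes peripherin, a filament protein of the same type as vimentin, and was 75.9 FPKM in siRNA-injected embryos and 147 FPKM in sham embryos. DES, the muscle filament gene, was 0.574 FPKM in siRNA-injected embryos and 1.36 FPKM in sham embryos.

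GJA1 encodes a connexin, the subunit of gap junction channels, that is found in many mesenchymal and cumulus cells. It was 1.77 FPKM in siRNA-injected embryos and 0.0597 FPKM in sham embryos, the lowest sham value of the 10 genes, with a 29.6-fold difference and a log2 difference of 1.38. GJA1 lies alone in its locus, on chromosome 9 from 31507202 to 31520216. GJB5, an epithelial connexin gene, was 28.2 FPKM in siRNA-injected embryos and 79.3 FPKM in sham embryos, and GJB1 was 0.983 FPKM in siRNA-injected embryos and 1.51 FPKM in sham embryos. The 4 connexin genes averaging 1 FPKM or more were lower as deposited, 2 of them by at least 2-fold on the log2 scale, against 15.7% of all genes. With equal totals 1 of the 4 was higher. GJC1, averaging under 1 FPKM like GJA1, was 0.0557 FPKM in siRNA-injected embryos and 0.583 FPKM in sham embryos. GJA1 was 6.26% of the GJB5 level in the injected pool and 0.0753% in the sham pool, and 10 of the 20 measured connexins and pannexins other than GJA1 were listed at 0 in both.

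CDH2 encodes N-cadherin, an adhesion protein of mesenchymal and neural cells. It was 1.24 FPKM in siRNA-injected embryos and 0.106 FPKM in sham embryos, an 11.8-fold difference and a log2 difference of 1.02, the third lowest of the 10. Its locus, on chromosome 24 from 29398109 to 29646615, holds no other listed gene. CDH1, which encodes E-cadherin of epithelia, was 19.7 FPKM in siRNA-injected embryos and 15.2 FPKM in sham embryos, so that CDH2 was 6.33% of the CDH1 level in the injected pool and 0.693% in the sham pool. Catenins link cadherins to actin. CTNNB1, the beta-catenin gene, was 61.9 FPKM in siRNA-injected embryos and 17.2 FPKM in sham embryos, a 3.61-fold difference, while CTNNA1 and CTNND1 were 46.6 and 17.4 FPKM in siRNA-injected embryos, against 35.9 and 11.2 FPKM in sham embryos. The 5 cadherin and catenin genes averaging 1 FPKM or more were each higher in the injected pool under every scaling tried. The fifth, CDH26, was higher by 0.0058 on the log2 scale as deposited. Of all genes averaging 1 FPKM or more, 41.7% were higher as deposited. CDH15, with a mean under 1 FPKM like CDH2, went the other way, at 0.0859 FPKM in siRNA-injected embryos and 1.26 FPKM in sham embryos.

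**Figure D2:**
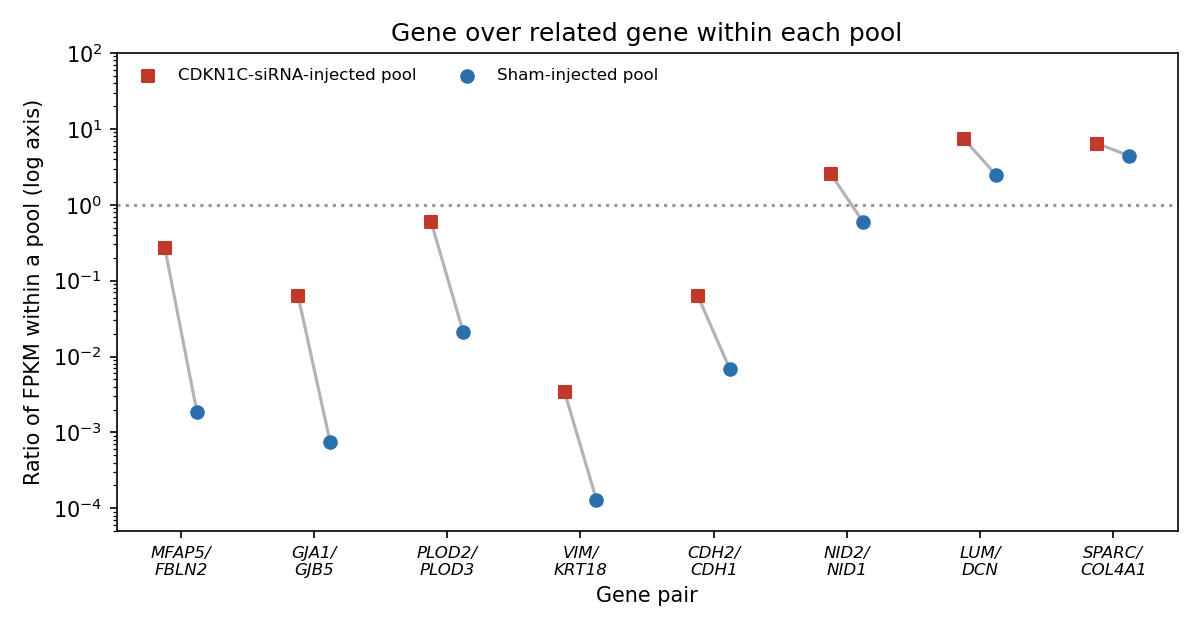
Ratio of the FPKM of a gene to that of a related gene within each pool (vertical, log axis), in the CDKN1C-siRNA-injected pool (red squares) and the Sham-injected pool (blue circles), 1 library each, with a dotted line at equal levels. The ratio was higher in the injected pool for each of the 8 pairs drawn, from 142-fold for MFAP5 over FBLN2 to 1.45-fold for SPARC over COL4A1, and of these pairs only NID2 over NID1 crossed the line. Apart from SPARC, the first genes were chosen for higher values in the injected pool, and the pairs with results known. The shared direction is therefore not a result. For SPARC over COL4A1 the ratio differed through COL4A1, which was lower in the injected pool.

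Transcription factors of mesenchyme were mostly low. SNAI1, a repressor of E-cadherin, was 5.08 FPKM in siRNA-injected embryos and 4.42 FPKM in sham embryos. The homeobox genes MSX2 and GSC were 9.16 and 5.05 FPKM in siRNA-injected embryos, against 23.6 and 13.4 FPKM in sham embryos, and MSX1 was 8.60 FPKM in siRNA-injected embryos, against 5.05 FPKM in sham embryos. PRRX2 was 2.07 FPKM in siRNA-injected embryos and 4.61 FPKM in sham embryos, and these were the only 5 of 18 measured factors averaging 1 FPKM or more. On the log2 scale none was 2-fold higher and 2 were 2-fold lower as deposited, and 1 was 2-fold higher and none 2-fold lower with equal totals. Below that mean, more factors were higher than lower after siRNA injection. TWIST2 was 0.331 FPKM in siRNA-injected embryos and 0.0312 FPKM in sham embryos, and PRRX1 was 0.244 FPKM in siRNA-injected embryos and listed at 0 in the sham pool. ZEB1 was 0.142 FPKM in siRNA-injected embryos, against 0.0847 FPKM in sham embryos. FOXF1, FOXC2 and SNAI2 were 0.248, 0.648 and 0.225 FPKM in siRNA-injected embryos, against 0.0306, 0.279 and 0.0853 FPKM in sham embryos. TCF21 and MEOX1 were above 0 in the injected pool only. TWIST1 and TBX18 were lower after siRNA injection, at 0.139 and 0.136 FPKM, against 0.238 and 0.169 FPKM in sham embryos. MEOX2 and ZEB2 were listed at 0 in the injected pool, against 0.0563 and 0.00896 FPKM in sham embryos.

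Over all 10 lists of related genes, 49 genes other than the 10 had a mean of at least 1 FPKM, 18 higher and 31 lower in the injected pool. At least 2-fold higher on the log2 scale were 2 of them, SERPINH1 and CTNNB1, or 4.08% against 4.92% of all genes, and 9 were at least 2-fold lower, or 18.4% against 15.7%. None differed by 4-fold in either direction, against 0.413% of all genes higher and 1.05% lower. With equal totals 6 were 2-fold higher and 6 were 2-fold lower. Their median log2 difference was -0.35, against -0.17 for all genes, and with equal totals it was -0.063 against 0.16. As deposited, the shares of related genes at 2-fold were near those of all genes.

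**Figure D3:**
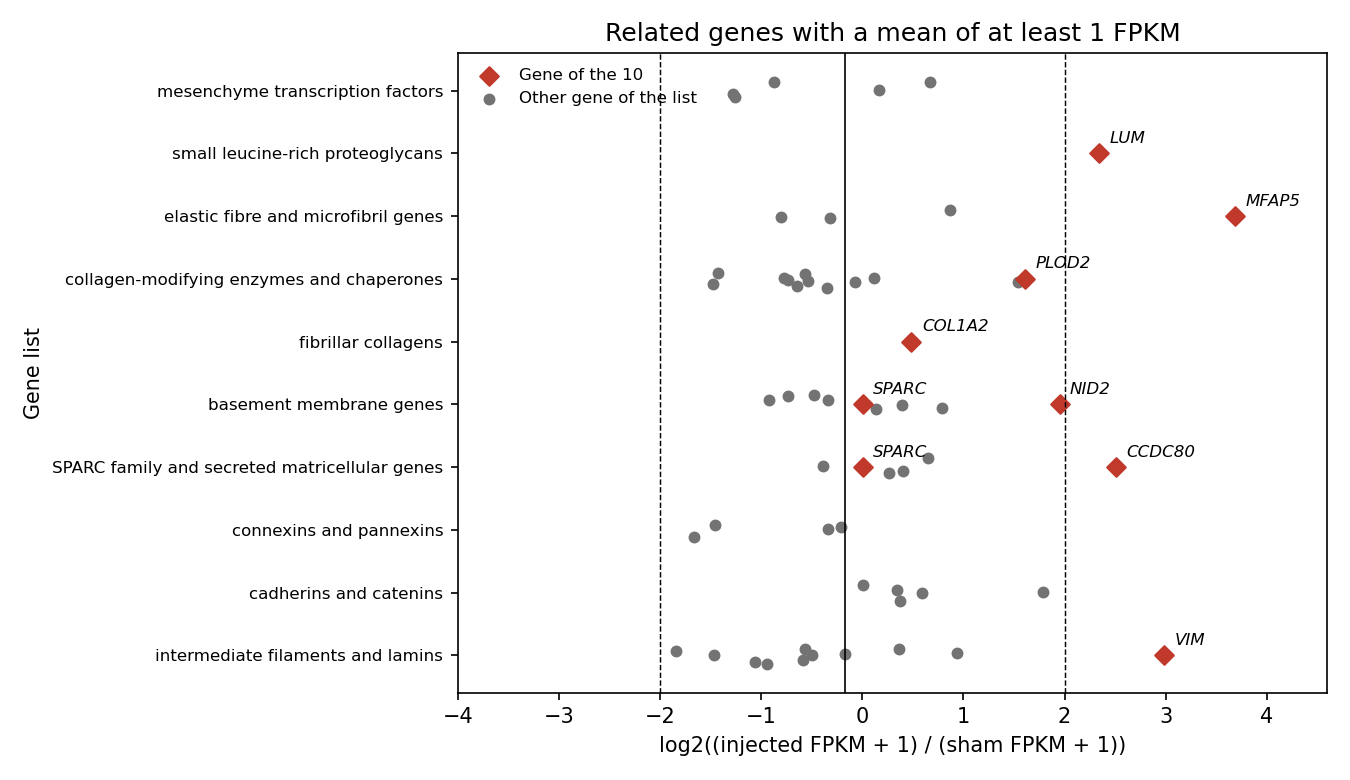
log2 of injected over sham FPKM after adding 1 FPKM (horizontal) for genes of 10 lists (vertical) averaging 1 FPKM or more, 1 library per pool. Red diamonds are genes of the 10 and grey points other genes of a list, with a solid line at the median of all genes and dashed lines at 4-fold, and GJA1 and CDH2 are left out since their means are under 1 FPKM. No grey point lies beyond 4-fold, and MFAP5, LUM, CCDC80 and VIM lie beyond it on the right.

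The nearest genes beside the 10, on either side and with a mean of at least 1 FPKM, went both ways. Of 20 such neighbours 12 were higher and 8 lower after siRNA injection, while 41.7% of all genes averaging 1 FPKM or more were higher. Their log2 differences ran from -1.94 to 1.44 with a median of 0.085, against -0.17 for all genes. None was 4-fold higher on that scale, against 0.413% of all genes, a share too small to read anything from 20 genes. SLC35A5, 13.1 kb from CCDC80, was 3.62 FPKM in siRNA-injected embryos and 2.54 FPKM in sham embryos, and TRDMT1, 39.5 kb from VIM, was 1.67 FPKM in siRNA-injected embryos, against 0.635 FPKM in sham embryos. Beside GJA1, at 138.9 kb, LOC507211 was 1.04 FPKM in siRNA-injected embryos and 6.85 FPKM in sham embryos, in the opposite direction to GJA1. On the other side of it, at 1101 kb, HSF2, a heat shock factor gene, was 8.24 FPKM in siRNA-injected embryos and 2.41 FPKM in sham embryos. GDF3, a growth factor gene 43.5 kb from the MFAP5 locus, was 0.852 FPKM in siRNA-injected embryos and 5.94 FPKM in sham embryos, and PLSCR1, a phospholipid scramblase gene 393 kb from PLOD2, was 2.38 FPKM in siRNA-injected embryos, against 0.374 FPKM in sham embryos at that locus.

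**Figure D4:**
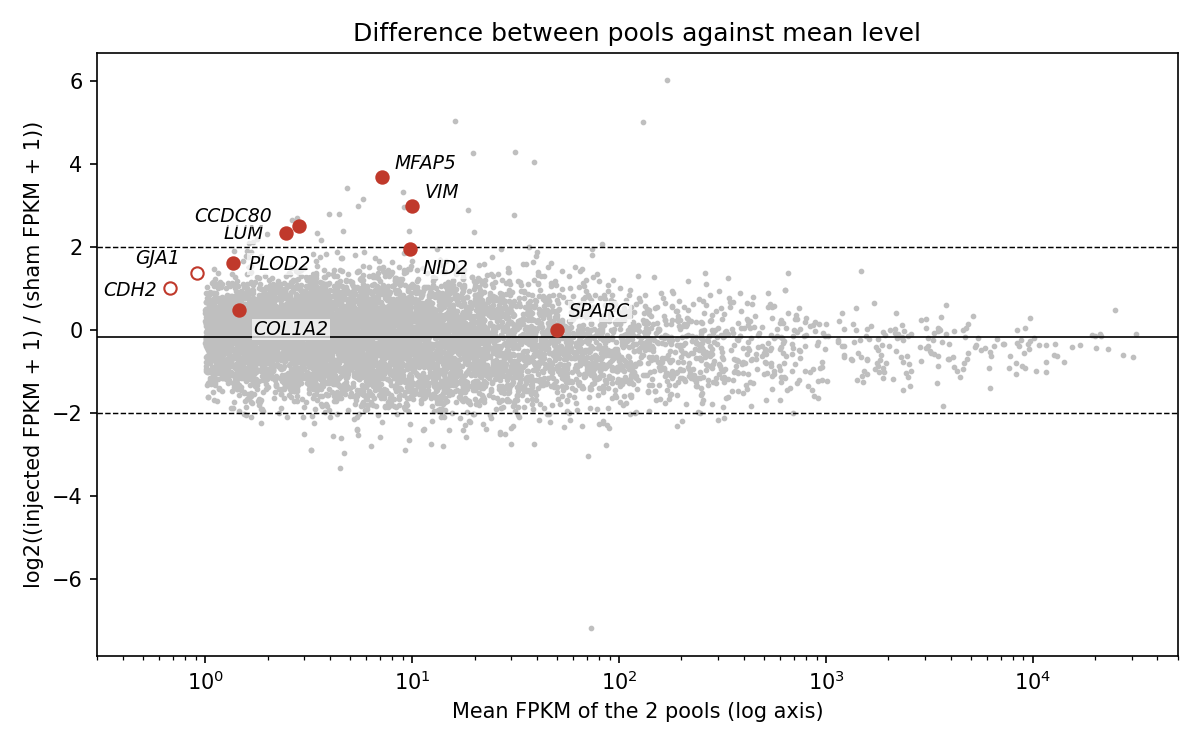
log2 of injected over sham FPKM after adding 1 FPKM (vertical) against the mean FPKM of both pools (horizontal, log axis), 1 library per pool. Grey points mark 7984 genes averaging 1 FPKM or more, filled red points are the 8 genes of the 10 with such a mean and open points are GJA1 and CDH2. The solid line is the median of all genes at -0.17 and the dashed lines are 4-fold differences, with MFAP5, LUM, CCDC80 and VIM above and NID2 just below the upper one.

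The embryo was checked against markers of its own cell types. All 11 trophectoderm markers had a mean of at least 1 FPKM, led by KRT18 and KRT8, and their summed level was 7620 FPKM in siRNA-injected embryos and 17613 FPKM in sham embryos. Without these keratins the sum was 620.4 FPKM in siRNA-injected embryos and 608 FPKM in sham embryos. GATA2 made up most of that, at 379 FPKM in siRNA-injected embryos and 461 FPKM in sham embryos. Of the 11 markers 5 were higher in the injected pool as deposited and 6 were lower. Of all genes averaging 1 FPKM or more, 41.7% were higher. IFNT2, an interferon tau gene, was 135 FPKM in siRNA-injected embryos and 31.1 FPKM in sham embryos, a 4.33-fold difference. CDX2, TEAD4 and GATA3 were lower, at 1.19, 18.4 and 11.4 FPKM in siRNA-injected embryos, against 3.76, 37.3 and 18.9 FPKM in sham embryos. As deposited, the sum without the keratins thus holds a higher IFNT2 beside lower GATA2 and other factors. Of 8 epiblast and inner cell mass markers 7 had such a mean, with the pluripotency gene POU5F1 at 56.3 FPKM in siRNA-injected embryos and 170 FPKM in sham embryos and NANOG at 15.1 FPKM in siRNA-injected embryos, against 23.9 FPKM in sham embryos. DPPA3, a maternal and early embryonic gene, was 41.0 FPKM in siRNA-injected embryos and 30.6 FPKM in sham embryos. For 9 hypoblast markers, which include FN1 at 177 FPKM in siRNA-injected embryos, against 161 FPKM in sham embryos and GATA6 at 14.0 FPKM in siRNA-injected embryos, against 13.7 FPKM in sham embryos, the sum was 218 FPKM in siRNA-injected embryos and 201 FPKM in sham embryos. Without FN1 it was 41.2 FPKM in siRNA-injected embryos and 39.2 FPKM in sham embryos. HNF4A, a transcription factor of this list, was 1.16 FPKM in siRNA-injected embryos and 3.78 FPKM in sham embryos, 3.26-fold lower after siRNA injection. SOX17 was listed at 0 in both.

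Markers of fibroblasts and mesenchyme, none of them among the 10 genes, had a summed level of 63.8 FPKM in siRNA-injected embryos and 31.2 FPKM in sham embryos. In the injected pool S100A4 made up most of it, at 37.5 FPKM, against 14.2 FPKM in sham embryos. ACTA2, a smooth muscle actin gene, was 22.6 FPKM in siRNA-injected embryos, against 14.96 FPKM in sham embryos. It was the highest of these markers in the sham pool. PDGFRA was 2.58 FPKM in siRNA-injected embryos, against 1.82 FPKM in sham embryos. The other 9 of these 12 markers had means under 1 FPKM. COL1A1 and FAP were listed at 0 in both pools, POSTN and TAGLN at 0 in the sham pool and PDGFRB at 0 in the injected pool. DCN, COL3A1 and FBN1 were 0.653, 0.190 and 0.0381 FPKM in siRNA-injected embryos, against 0.0559, 0.00526 and 0.0212 FPKM in sham embryos. THY1 was 0.053 FPKM in siRNA-injected embryos and 0.111 FPKM in sham embryos. Among the markers above 0 in either pool, only PDGFRB and THY1 were lower after siRNA injection. Of the 12 markers 6 are also on another list used here. The part of such cells in the values of the 10 genes was not tested beyond these levels.

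Cumulus and granulosa cells surround the oocyte before fertilization and were stripped from the zygotes before injection. Their 14 markers summed to 40.8 FPKM in siRNA-injected embryos and 44.0 FPKM in sham embryos. PTGS2, a prostaglandin synthase gene that trophectoderm also expresses, was the highest, at 26.9 FPKM in siRNA-injected embryos and 16.9 FPKM in sham embryos, and HSD3B1, of steroid synthesis, was 3.29 FPKM in siRNA-injected embryos, against 15.7 FPKM in sham embryos. PTX3, AMH and FOXL2 were listed at 0 in both pools. Endothelial markers summed to 3.33 FPKM in siRNA-injected embryos and 6.24 FPKM in sham embryos, with CDH5 and TIE1 listed at 0 in both, and leukocyte markers to 0.670 FPKM in siRNA-injected embryos, against 1.16 FPKM in sham embryos, with CD3E and CD79A at 0. Oocyte markers, led by OOEP and ZP3, summed to 46.6 FPKM in siRNA-injected embryos and 85.5 FPKM in sham embryos.

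The number of fragments behind a value is unknown, since FPKM keeps no counts. Low values still came in steps. Among 1273 loci above 0 and under 0.1 FPKM in both pools, the most frequent ratio of injected to sham FPKM was 0.921, which 134 loci met within 0.05 on the log2 scale, while 24 and 21 loci lay midway to the next steps. One fragment was thus worth about the same in both pools. If the sham value of a gene rests on at least 1 uniquely mapped fragment, its injected value rests on at least 41.7 fragments for CCDC80, 37.5 for LUM, 32.1 for GJA1, 16.3 for PLOD2 and 12.8 for CDH2. The sham values of these genes may rest on very few fragments, so that their folds are uncertain in size.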

How the data were processed

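RNA-Seq values of 1 CDKN1C-siRNA-injected and 1 Sham-injected embryo pool were used. The authors amplified the RNA with the MessageAmp II kit, mapped reads to bosTau7 with TopHat and deposited FPKM made with Cufflinks 2.0.2, upper-quartile normalized and corrected for sequence bias. The gene annotation is not given in the sources used here. Amplification and the scaling to the upper quartile can alter levels between pools.

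Of 22220 loci, 615 without a symbol were left out, and loci of one symbol were summed, which gave 21209 symbols. Each of the 10 genes has 1 locus. With 1 library per group no test was run, and differences are described by size, after a pseudocount of 1 FPKM and a minimum mean of 1 FPKM, at 4-fold or 2-fold. The 10 genes, the gene lists and the gene pairs were chosen with earlier results of these data known. Genes named from each list were taken from the 3 genes furthest up and the 3 furthest down among genes averaging 1 FPKM or more, the gene of highest level, the nearest neighbours and, for markers, the 2 highest and those at 0. Some genes of the lists are not reported here. Other named genes were chosen after their values were seen. Of 76 ribosomal protein symbols, 2 tissue-restricted ones were at 0 in both pools. Alternatives were pseudocounts of 0.1 and 5 FPKM, no filter or a mean of at least 5 FPKM, other scalings, the highest locus in place of the sum and folds of 2 and 10. Sequences were not used here. Python 3.11.15, pandas 2.3.3, NumPy 2.4.6 and matplotlib 3.10.9 were used.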

Additional observations from a re-analysis of the deposited data

How the results depend on the processing

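As deposited, 4 of the 10 genes were at least 4-fold higher in the injected pool on the log2 scale and none 4-fold lower, and their median log2 difference over the 8 genes averaging 1 FPKM or more was 2.15. The count was 0 with a pseudocount of 5 FPKM, 2 over genes averaging 5 FPKM or more and 1 at 10-fold, since fewer genes are then eligible or the same difference counts for less, and 6 at 2-fold or with a pseudocount of 0.1 FPKM. It was 5 under each of the 3 other scalings, which brought NID2 past 4-fold. The median was 3.44 with a pseudocount of 0.1 FPKM and 0.98 with one of 5 FPKM. Among related genes the count at 4-fold higher was 1 with equal totals, and at 2-fold it was 2 higher and 9 lower, against 0 as deposited at 4-fold. For single genes, 45 of 60 log2 differences under the alternatives lay within 1.5-fold of the deposited scale, 15 did not, and none was negative. The 15 came from the pseudocounts of 0.1 and 5 FPKM. The rest was largely fixed beforehand. The highest locus is the only locus of each of the 10 genes, and the 3 other scalings raise every gene by less than 1.5-fold. A pseudocount cannot change the sign of a difference. These counts therefore say nothing beyond the effect of the pseudocounts. A scaling that makes 1 fragment worth the same in both pools was added after seeing the data. No paired analysis was possible because each group has 1 library. No replicate could be left out.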

Other observations

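Other genes shared the pattern of values under 0.2 FPKM in sham embryos and at least 1 FPKM in siRNA-injected embryos, and those named here were chosen after their values were seen. There were 47 such symbols outside the 10 genes. PLAT, the tissue plasminogen activator, was 3.09 FPKM in siRNA-injected embryos and 0.0889 FPKM in sham embryos, and HTRA1, a serine protease of the matrix, was 1.84 FPKM in siRNA-injected embryos and 0.0469 FPKM in sham embryos. CRYAB, a small heat shock protein gene of muscle and lens, was 3.95 FPKM in siRNA-injected embryos and listed at 0 in the sham pool. ACTA1, the skeletal muscle actin gene, was 1.44 FPKM in siRNA-injected embryos and 0.175 FPKM in sham embryos. SOSTDC1, a secreted antagonist of BMP signalling, was 1.20 FPKM in siRNA-injected embryos and 0.0992 FPKM in sham embryos, and DLX5, a homeobox gene of skeletal and limb mesenchyme, was 1.02 FPKM in siRNA-injected embryos, against 0.107 FPKM in sham embryos. Proteases and muscle genes were also among the symbols of the opposite pattern. PROC, which encodes a plasma protease, was listed at 0 in the injected pool and was 3.71 FPKM in sham embryos, and ACTG2, a smooth muscle actin gene, was 0.113 FPKM in siRNA-injected embryos and 1.27 FPKM in sham embryos.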
